A study of Mus musculus with 20 samples.

Results

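H3K4me1, the single methyl group on lysine 4 of histone H3, was compared between fasted mouse livers without and with the nuclear receptor gene Ppara, and the regions carrying it were read by the gene programs around them. The regions were consensus intervals of the authors' list for this mark in which a peak was called in all 8 H3K4me1 libraries, which held for 19526 of 103014 intervals. In each library an interval took the highest fold enrichment over input of its peaks, as log2, and each library was centred on its median. The 4 Ppara-null livers (Ppara KO and DKO) were set against the 4 Ppara-intact livers (WT and Cpt2 KO).

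The mice were C57BL/6 males of 9 weeks, fasted for 24 hours, with 2 livers per genotype. WT mice carried neither deletion. Cpt2 KO mice (Cpt2 L-/-) lacked in the liver the mitochondrial carnitine palmitoyltransferase that long-chain fatty acids need to be oxidized, Ppara KO mice (Ppara -/-) lacked Ppara, and DKO mice (Cpt2 L-/- ; Ppara -/-) lacked both. The Ppara-intact and Ppara-null groups each held 2 livers with Cpt2 and 2 without, and all mice were fasted. The labels do not name the driver of the liver deletion. H3K27ac, the acetylation of lysine 27, had been profiled in the same 8 livers, going by the animal numbers in the peak names, and its change is given beside that of H3K4me1.

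H3K4me1 is laid down by the methyltransferases KMT2C and KMT2D and marks enhancers, whether active or poised, as well as the flanks of promoters. H3K27ac at the same place marks the active ones. PPARα is a receptor for fatty acids that pairs with RXR on direct repeats of a hexamer, and in the fasted liver it is known for inducing peroxisomal, microsomal and mitochondrial fatty acid oxidation, ketogenesis and hormones such as FGF21.

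The H3K4me1 lists held 61189 to 72151 peaks per library, with a median fold of 5.83 to 6.13, and depth in reads is unknown. Smallest peak widths were 199 and 199 bases for the WT libraries, 211 and 196 for the Cpt2 KO libraries, 200 and 216 for the Ppara KO libraries and 210 and 221 for the DKO libraries. The 4 libraries of 210 bases or more, of which 3 were Ppara-null, covered 38.8 to 46.0 Mb, and the other 4 covered 52.5 to 53.5 Mb. Animal numbers were 6833 to 6848 in the Ppara-null mice and 9548 to 9589 in the Ppara-intact mice, so breeding or cohort and Ppara genotype cannot be told apart. Peaks do not check the deletion: of 33 H3K4me1 intervals whose middle lay in or within 5000 bases of Ppara, 15 were called in all 8 libraries and 0 in the 4 intact livers alone. Hepatocyte genes carried the mark, with members at 8 of 9 hepatocyte markers, against 2 of 8 for macrophages, 3 of 6 for endothelium, 1 of 5 for cholangiocytes, 1 of 6 for lymphocytes, 0 of 6 for stellate cells and 0 of 5 for neutrophils.

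Members were long regions, mostly within genes. Their median width was 1923 bases, against 518 over all consensus intervals of the mark, and 68.6% had their middle in a protein-coding gene body. The nearest gene of 3983 members has no start in the RefSeq table; of the rest, 1197 (7.70%) had their middle within 1000 bases of a start of that gene. In bulk liver, fewer cells of a type and less of the mark per cell cannot be told apart.

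Sequence is shown for 6 promoters of the RefSeq table (GRCm38.p6, the assembly called mm10), because member intervals overlapped them and the results below turn on those intervals or on the receptor's motif. Each run has 300 bases, 5′ to 3′ on the strand of its gene, of which the last 50 lie after the start. Capitals mark the hexamer AGGTCA on either strand, and the direct repeat AGGTCANAGGTCA with up to 2 mismatches outside the N on either strand. A repeat with mismatches need not hold the exact hexamer. Where a match of each overlaps, they form 1 run of capitals.
Lexis1 (chr4:53218632-53218931, minus strand): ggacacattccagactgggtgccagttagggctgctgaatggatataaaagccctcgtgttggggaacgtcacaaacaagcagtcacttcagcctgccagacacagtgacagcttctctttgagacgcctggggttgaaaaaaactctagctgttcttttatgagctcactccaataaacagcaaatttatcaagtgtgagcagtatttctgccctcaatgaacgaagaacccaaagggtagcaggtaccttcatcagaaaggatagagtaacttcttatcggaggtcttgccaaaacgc
Fgf21 (chr7:45615441-45615740, minus strand): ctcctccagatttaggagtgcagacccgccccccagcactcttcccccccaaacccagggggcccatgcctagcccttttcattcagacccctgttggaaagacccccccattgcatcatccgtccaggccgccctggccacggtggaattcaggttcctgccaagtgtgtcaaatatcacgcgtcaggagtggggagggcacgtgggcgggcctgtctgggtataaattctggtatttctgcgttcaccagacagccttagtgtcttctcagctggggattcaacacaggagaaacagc
Plin5 (chr17:56117499-56117798, minus strand): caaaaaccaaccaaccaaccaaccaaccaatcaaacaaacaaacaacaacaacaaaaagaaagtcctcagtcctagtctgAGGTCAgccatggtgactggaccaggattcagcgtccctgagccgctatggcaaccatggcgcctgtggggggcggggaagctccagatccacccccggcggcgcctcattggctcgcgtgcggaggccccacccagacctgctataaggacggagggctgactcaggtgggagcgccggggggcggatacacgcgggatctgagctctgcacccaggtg
Fabp1 (chr6:71199629-71199928, plus strand): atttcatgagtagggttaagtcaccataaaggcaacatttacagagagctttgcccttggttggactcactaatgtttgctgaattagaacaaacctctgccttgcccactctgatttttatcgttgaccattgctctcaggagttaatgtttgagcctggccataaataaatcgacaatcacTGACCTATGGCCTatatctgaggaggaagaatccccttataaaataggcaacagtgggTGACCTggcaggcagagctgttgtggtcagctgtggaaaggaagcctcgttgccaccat
Gdf15 (chr8:70632407-70632706, minus strand): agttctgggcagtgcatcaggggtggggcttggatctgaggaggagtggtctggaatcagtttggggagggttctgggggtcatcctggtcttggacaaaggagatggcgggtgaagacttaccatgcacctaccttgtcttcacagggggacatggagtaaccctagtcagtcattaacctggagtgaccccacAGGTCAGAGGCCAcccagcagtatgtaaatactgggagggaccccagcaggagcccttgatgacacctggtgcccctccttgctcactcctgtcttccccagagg
Apoc2 (chr7:19677892-19678191, minus strand): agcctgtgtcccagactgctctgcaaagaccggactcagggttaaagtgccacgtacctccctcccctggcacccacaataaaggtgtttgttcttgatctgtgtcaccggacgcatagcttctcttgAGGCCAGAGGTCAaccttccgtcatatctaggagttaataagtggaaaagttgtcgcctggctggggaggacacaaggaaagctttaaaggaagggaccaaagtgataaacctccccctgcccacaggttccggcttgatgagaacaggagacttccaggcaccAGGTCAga

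Among all 32851 promoters of the table, 16.3% held the hexamer and 3.86% the repeat. Of the 1145 promoters that lay wholly within a member, 21.7% held the hexamer and 6.46% the repeat. Fabp1, the liver fatty acid binding protein, held a repeat with 1 mismatch on the opposite strand at bases 184 to 196 of the printed run. Gdf15, a stress hormone, and Apoc2, the cofactor of lipoprotein lipase, each held a repeat with 1 mismatch on the printed strand. Plin5, a lipid droplet coat protein, held 1 hexamer. It lay in the part of the window outside the member interval, which ended at base 56117610. Neither pattern was in the windows of Fgf21 or Lexis1. Among the program genes the repeat also lay in member-overlapped promoters of Rxra, Slco1a1, Itih4 and Igfals. A match of letters is a description and not a binding site.

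Without Ppara, H3K4me1 fell at 16 intervals and rose at 9. Those that fell included intervals at or near a coenzyme A synthesis gene (Pank1), a mitochondrial outer membrane protein (Miga2), the hepatocyte transcription factor gene Cebpb and the lncRNA Lexis1. Those that rose lay at or near Gldn, Snd1, Csnk1e, Tshz2, Spin1, Map3k1, Zbtb40, Cryaa and Gm4802, none of them on a gene list used here; among the genes nearest to those that fell, Cebpb and Abca1 were. The changes ran from 0.94 to 1.49 on the log2 scale among the 16 and from 0.92 to 1.45 among the 9. Calls used limma across all 19526 intervals with a Benjamini-Hochberg adjusted p under 0.05, so the share called was 0.0819% lower and 0.0461% higher.

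A regulator gene, Cebpb, had its called interval 31461 bases away, at chr2:167719253-167724534. C/EBPβ is a bZIP factor induced by fasting hormones and inflammation. H3K4me1 folds there were 22.1 and 21.2 in WT livers, 16 and 21.3 in the Cpt2 KO livers, 7.31 and 6.5 in the Ppara KO livers and 6.29 and 10.8 in the DKO livers. All 4 Ppara-intact livers exceeded all 4 Ppara-null livers, and 1 DKO liver lay above the other 3 null livers. The difference was -1.41 (SE 0.20, adjusted p = 0.0152) by limma. An H3K27ac interval there was called in all 4 intact livers, at folds of 18.8 and 19.3 (WT) and 22 and 19.8 (Cpt2 KO), and in 0 of the 4 Ppara-null livers.

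Pank1 encodes pantothenate kinase 1, which starts coenzyme A synthesis. At chr19:34819900-34822492, inside Pank1, folds were 12.8 and 12.5 in WT livers, 15.5 and 14.2 in the Cpt2 KO livers, 8.75 and 5.64 in the Ppara KO livers and 6.54 and 5.4 in the DKO livers. The groups did not overlap. H3K4me1 differed by -1.09 ± 0.20 (SE) and H3K27ac by -0.93 (SE 0.17, adjusted p = 0.00592) in the limma fits.

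The interval at chr4:53218228-53221528 has Abca1, the cholesterol exporter, as its nearest protein-coding gene, at 59890 bases. It covers both promoters that the RefSeq table gives for Lexis1, a lncRNA known from liver as a target of the oxysterol receptor LXR and a repressor of cholesterol synthesis genes. H3K4me1 folds were 13.4 and 12.9 in WT livers, 9.6 and 10.4 in the Cpt2 KO livers, 6.36 and 4.95 in the Ppara KO livers and 5.78 and 5.5 in the DKO livers. Every null liver was below every intact liver, and the WT livers were the highest. The difference was -1.03 (SE 0.19, adjusted p = 0.0488) by limma. An H3K27ac interval there was called in the WT livers alone, with folds of 4.80 and 4.92.

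Another 11 intervals that fell were of mixed function. Inside Mtus1, a microtubule-binding tumour suppressor gene, the difference was -1.05 ± 0.20 (SE), and inside Llgl2, a cell polarity gene, -0.94 ± 0.17 (SE). Near Ackr2, a decoy receptor for chemokines, it was -1.25 ± 0.21 (SE), and inside Miga2, a mitochondrial outer membrane protein of lipid handling, -1.17 ± 0.20 (SE). Of these 11, 7 lay at or near Zcchc24, Pllp, Gramd3, Nudt9, Rab40c, Lrrn4 and Slc22a23. The interval inside Rab40c also covers the promoter of Wfikkn1, a protease inhibitor gene. Over the 16 intervals the groups failed to overlap at 15; at Ackr2 a Ppara KO fold of 9.36 exceeded a Cpt2 KO fold of 9.27.

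**Figure D1:**
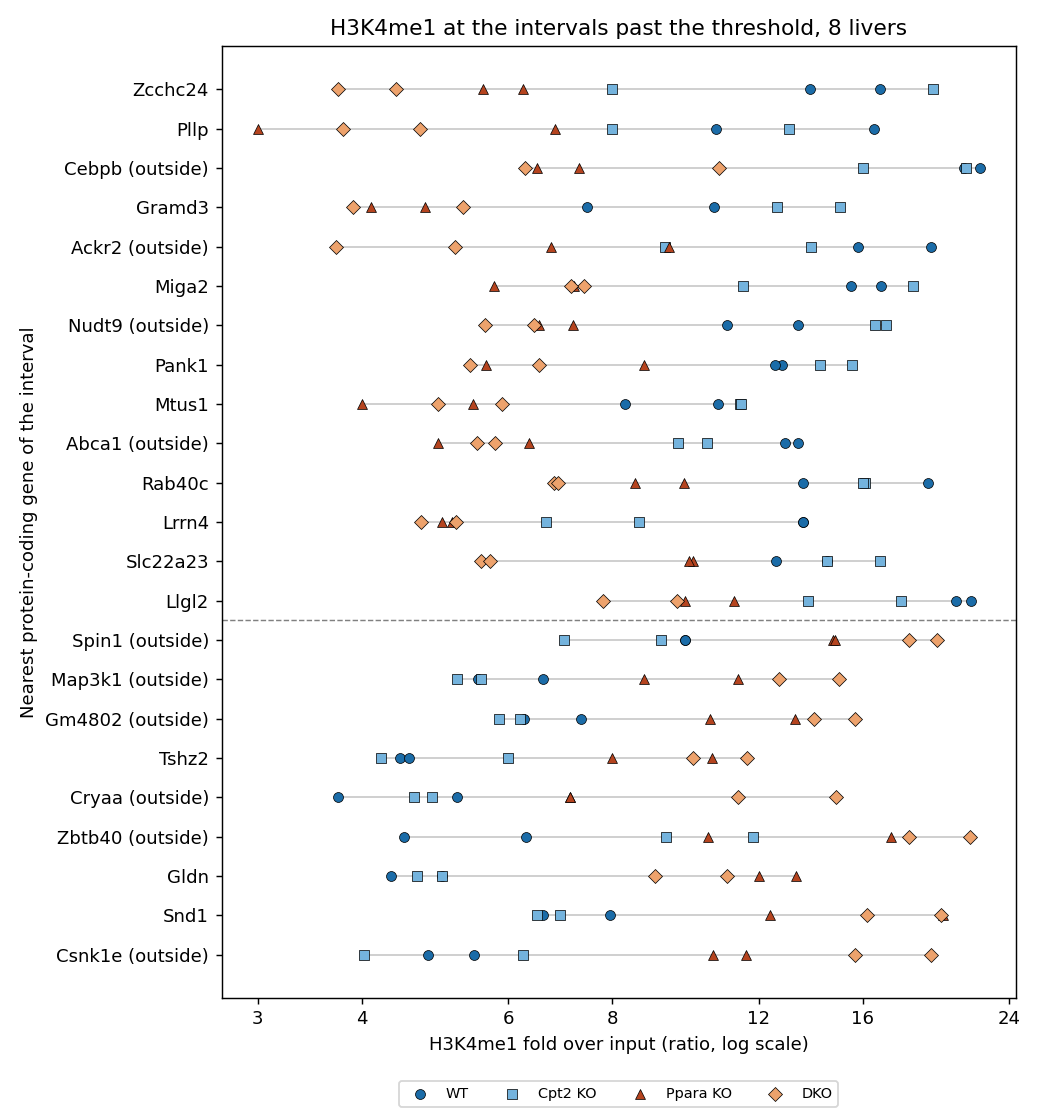
H3K4me1 fold over input (ratio, log2-spaced axis) of 23 of the 25 called intervals, 1 point per liver, with the nearest protein-coding gene on the y axis and "outside" where the middle of the interval lay outside its body. Above the dashed line 14 intervals that fell without Ppara, below it the 9 that rose; the 2 Ppara-null genotypes are in red and orange and lie to one side of the Ppara-intact genotypes in blue, except for overlaps at Ackr2 and Zbtb40.

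One of the 3 intervals that rose inside a gene was in Gldn, which encodes gliomedin, a protein known from peripheral nerve. At chr9:54297768-54299291, H3K4me1 folds were 5 and 4.33 in WT livers, 5 and 4.66 in the Cpt2 KO livers, 12 and 13.3 in the Ppara KO livers and 9.02 and 11 in the DKO livers. Every null liver was far above every intact liver. The limma difference was 1.24 (SE 0.19, adjusted p = 0.0297). An H3K27ac interval there was called in all 4 null livers, with folds of 19.2 and 17.3 (Ppara KO) and 18.1 and 24.8 (DKO), and in WT replicate 2, with a fold of 8.39.

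Near Csnk1e, which encodes casein kinase 1 epsilon, a kinase of the circadian clock proteins, the interval chr15:79416191-79417928 had its middle 793 bases from the gene. H3K4me1 folds were 5.46 and 4.8 in WT livers, 6.26 and 4.02 in the Cpt2 KO livers, 11.6 and 10.6 in the Ppara KO livers and 15.7 and 19.3 in the DKO livers. The DKO livers were the highest, and the groups did not overlap. The difference was 1.45 (SE 0.20, adjusted p = 0.0152) by limma, and H3K27ac was called there in the 4 null livers alone, with folds of 13.5 and 12 (Ppara KO) and 15.2 and 18.2 (DKO). Inside Snd1, a transcriptional coactivator and RNA-binding nuclease, the interval chr6:28680102-28683319 differed by 1.27 ± 0.20 (SE). Its H3K4me1 folds were 6.50 to 7.95 in the intact livers and above 12 in all null livers, again apart. Groups overlapped at 1 of the 9 intervals, near Zbtb40, where 1 Cpt2 KO fold of 11.8 exceeded a Ppara KO fold of 10.4.

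The Ppara difference is given here with and without Cpt2 for 3 of the intervals; where the groups do not overlap, as at 23 of the 25, its sign is fixed to be the same. At the Cebpb interval it was -1.66 with Cpt2 present (Ppara KO minus WT) and -1.16 with Cpt2 deleted (DKO minus Cpt2 KO). At Slc22a23 the values were -0.46 and -1.46, and at Lrrn4 they were -1.43 and -0.61. The interaction of Cpt2 and Ppara passed the threshold at 0 of 19526 intervals by limma, with 566 at an unadjusted p under 0.05. A dependence of the Ppara change on Cpt2 was therefore not detectable with 2 livers per genotype.

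Because 3 of the 4 libraries with a smallest width of 210 bases or more were Ppara-null, each call was also read within the width classes. The 16 intervals that fell had differences of -1.57 to -0.48 among the short-width libraries (1 null against 3 intact) and of -1.50 to -0.41 among the long-width libraries (3 null against 1 intact). The 9 that rose had differences of 0.56 to 1.36 and of 0.69 to 1.53. Since the groups did not overlap at 23 of the 25, the signs within the classes were fixed by the choice of intervals, and the sizes are a description. With the smallest width as a covariate in limma, 0 intervals were called (1499 at an unadjusted p under 0.05), and the 25 differences ran from -1.38 to -0.81 and from 0.80 to 1.29.

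The number of calls hung on single libraries. Leaving out either WT library, the second of Ppara KO or the first of DKO gave 0 (1663 to 1976 at an unadjusted p under 0.05). The count was 1 without the second DKO library, 9 without the second of Cpt2 KO, 30 without the first of Ppara KO and 1015 without the first of Cpt2 KO. Without a threshold, the 2 groups of 4 failed to overlap at 624 intervals in the lower direction (3.2%) and at 530 in the higher direction (2.71%). Of the 25 called intervals, 23 were among these.

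H3K4me1 was then averaged over the member intervals of each gene, taking intervals whose middle was within 50000 bases of the gene body, which gave 6824 genes. By limma 1 gene passed the threshold (0.0147%), with 936 at an unadjusted p under 0.05. That gene was Gldn, whose mean rests on the 1 interval described above, at 1.24 (SE 0.12, adjusted p = 0.0204) for the gene fit. The same values had an SE of 0.19 in the interval fit. The smaller SE comes from limma sharing the spread among gene means, many of them averaged over several intervals. Groups failed to overlap at 244 gene means in the lower direction (3.58%) and at 196 in the higher direction (2.87%). The median change over all genes was -0.02, and 3617 of 6824 lay below 0. Leaving out Cpt2 KO replicate 1 gave 19 called genes by limma, and leaving out any of the other 7 libraries gave 0 (564 to 1191 at an unadjusted p under 0.05).

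Peroxisomal fatty acid oxidation shortens very long chains and makes hydrogen peroxide and acetyl-CoA. Of its 21 listed genes, 16 had members, 12 gene means lay below 0 and 0 passed the limma test in either direction (4 at an unadjusted p under 0.05). The median was -0.17, beside -0.02 over all genes, and it ran from -0.26 to -0.05 over 19 other settings. Averaged over these 16 genes, the centred log2 H3K4me1 of WT was 0.20 and 0.10, that of Cpt2 KO 0.13 and 0.03, that of Ppara KO -0.05 and -0.13 and that of DKO -0.09 and -0.14. The null livers were all below the intact livers. H3K27ac gene means fell by limma at 6 of 16 genes of this program, where 3.85% of 9214 genes fell and 1.66% rose, with a median of -0.39. These 16 genes were not all the same as the 16 above. Over the 14 genes with both marks the medians were -0.19 for H3K4me1 and -0.43 for H3K27ac.

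Single peroxisomal genes varied widely. Pex11a, a factor of peroxisome division induced by fibrates, had 1 interval, chr7:79734455-79740700, with folds of 14.2 and 6.64 in WT livers, 13.2 and 13.7 in the Cpt2 KO livers, 5.73 and 5.62 in the Ppara KO livers and 4.5 and 6.45 in the DKO livers. All null livers were below all intact livers, though WT replicate 2 stood near them. The gene mean differed by -1.05 (SE 0.23, adjusted p = 0.136) in the limma fit. At Eci2, an enoyl-CoA isomerase of peroxisomes and mitochondria, the interval chr13:35015559-35020888 had folds of 14 and 10 in WT livers, 14.2 and 15 in the Cpt2 KO livers, 7.14 and 6.53 in the Ppara KO livers and 7.82 and 7.89 in the DKO livers. The lowest intact value was 10.0 and the highest null value 7.89. Its H3K4me1 difference was -0.85 (SE 0.19, adjusted p = 0.083), and its H3K27ac difference was -1.10 (SE 0.19, adjusted p = 0.00474). Abcd3, a peroxisomal importer of acyl-CoA, had a gene mean of -0.32 ± 0.12 (SE) over 6 intervals.

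Ehhadh, the bifunctional enzyme of the peroxisomal cycle, had a gene mean that differed by -0.37 ± 0.18 (SE), and Acaa1b, a thiolase of the last step, by -0.16 ± 0.14 (SE). Neither passed by limma. H3K27ac at Acaa1b fell, with a difference of -1.46 (SE 0.14, adjusted p = 0.000451) in limma's gene fit. At Ehhadh the H3K27ac gene mean differed by -0.09 (SE 0.13, adjusted p = 0.723) in the same fit.

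Microsomal hydroxylation turns fatty acids into dicarboxylic acids through cytochromes P450 of the Cyp4a family. Of 11 listed genes 7 had members, 5 gene means were below 0 and 0 passed by limma (4 at an unadjusted p under 0.05). Cyp4a32 had 1 interval, chr4:115595716-115600376, 2881 bases from the gene, with H3K4me1 folds of 10.6 and 13 in WT livers, 19.2 and 13.4 in the Cpt2 KO livers, 6 and 7.41 in the Ppara KO livers and 9.85 and 8.49 in the DKO livers. H3K27ac folds at the same place were 18.5 and 19.4 in WT livers, 48.3 and 37.7 in the Cpt2 KO livers, 10 and 6.69 in the Ppara KO livers and 8.12 and 8.52 in the DKO livers. Both marks separated the groups, and the Cpt2 KO livers were the highest in H3K27ac. H3K4me1 differed by -0.82 (SE 0.19, adjusted p = 0.101) and H3K27ac by -1.81 (SE 0.18, adjusted p = 0.000239) in the limma fits. At Cyp4a10, the family member most used as a PPARα readout, the interval at chr4:115514142-115518049 differed by -0.82 ± 0.19 (SE). Cyp4f14 had a gene mean of -0.37 ± 0.15 (SE) in H3K4me1 and of 0.27 ± 0.17 (SE) in H3K27ac. Near-identical copies of Cyp4a genes lie side by side, so reads between them are uncertain.

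Mitochondrial fatty acid oxidation had members at 12 of 17 genes, of which 9 were below 0 and 0 passed by limma (4 at an unadjusted p under 0.05). Hadhb, which encodes the thiolase subunit of the trifunctional protein, had the smallest p of the list. Its interval chr5:30167733-30171555 had H3K4me1 folds of 12.5 and 11.4 in WT livers, 11 and 11.8 in the Cpt2 KO livers, 6.52 and 5.64 in the Ppara KO livers and 6 and 5.97 in the DKO livers. The null folds were all under 6.6 and the intact folds all at or above 11. The gene mean, which rests on this 1 interval, differed by -0.96 (SE 0.11, adjusted p = 0.0506) in limma's gene fit, just outside the threshold. In the interval fit the same values had an SE of 0.19 (adjusted p = 0.0562, limma). The overlapping H3K27ac interval was called in the 4 intact livers, with folds of 10.3 and 10.1 (WT) and 17 and 15.6 (Cpt2 KO), and in 0 null livers. Hadh, the short-chain hydroxyacyl-CoA dehydrogenase, differed by -0.37 ± 0.11 (SE), while Acsm3, a medium-chain acyl-CoA synthetase, had 0.67 ± 0.21 (SE). The list median was -0.13.

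The carnitine shuttle carries long-chain acyl groups into mitochondria. Members lay at 4 of 8 genes, of which 0 passed by limma (1 at an unadjusted p under 0.05). Crat, which encodes carnitine acetyltransferase, had a gene mean of -0.74 (SE 0.16, adjusted p = 0.136) over 2 intervals, with groups apart. Its H3K27ac gene mean had 0.29 (SE 0.12, adjusted p = 0.163) in limma's gene fit. The rate-setting Cpt1a had an H3K4me1 gene mean of 0.01 ± 0.11 (SE) over 8 intervals. Cpt2, deleted in the livers of both Cpt2 genotypes, had a gene mean of 0.13 ± 0.16 (SE) over 1 interval. Its H3K27ac gene mean fell, with a difference of -0.81 (SE 0.15, adjusted p = 0.0125) in limma's gene fit.

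Ketone body synthesis and export had members at 6 of 7 genes, with the lowest median of the 26 programs, -0.32 (range over the other settings -0.45 to -0.11). Averaged over the 6 genes, the centred log2 H3K4me1 of WT was 0.30 and 0.21, that of Cpt2 KO 0.32 and 0.36, that of Ppara KO 0.18 and 0.14 and that of DKO 0.06 and 0.09. The null livers again lay below all intact livers, with DKO the lowest. Acat1, which makes acetoacetyl-CoA, differed by -0.58 ± 0.19 (SE) and the ketone exporter Slc16a1 by -0.29 ± 0.10 (SE). By limma 0 of the 6 gene means passed (5 at an unadjusted p under 0.05). H3K27ac gene means passed at 0 of 7 genes of this program.

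**Figure D2:**
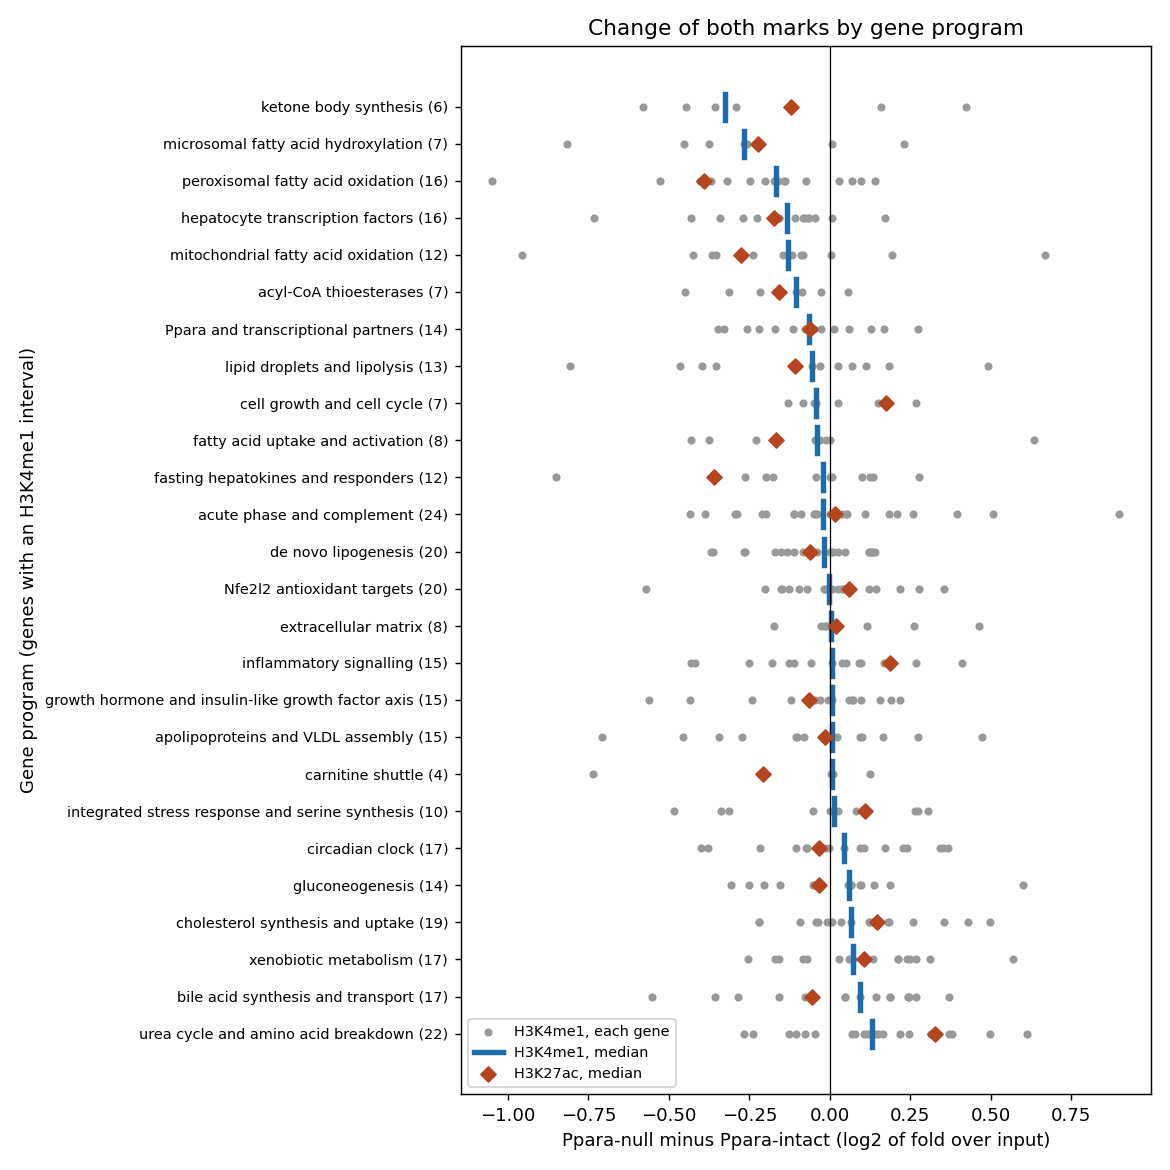
Difference between Ppara-null and Ppara-intact livers (log2 of fold over input) for each of 26 gene programs, with the number of genes that have an H3K4me1 member in brackets. Grey points are gene means of H3K4me1, blue bars their median and red diamonds the median of H3K27ac gene means. Ketone body synthesis has the lowest H3K4me1 median (-0.32) and urea cycle and amino acid breakdown the highest (0.13). Bars and diamonds need not cover the same genes. Over the 11 mitochondrial oxidation genes with both marks the medians were -0.12 (H3K4me1) and -0.13 (H3K27ac). Over the 8 such genes of fatty acid uptake they were -0.04 and -0.23.

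Fatty acid uptake had members at 8 of 16 genes, with a median of -0.04 and 0 past the limma test (2 at an unadjusted p under 0.05). Fabp1 is the most abundant fatty acid carrier of hepatocytes. The interval over its printed promoter, chr6:71193053-71202673, had H3K4me1 folds of 12 and 13.2 in WT livers, 11.4 and 9.44 in the Cpt2 KO livers, 5.57 and 9.35 in the Ppara KO livers and 9.3 and 10.9 in the DKO livers. One Ppara KO liver was lowest and the groups overlapped. H3K4me1 differed by -0.43 (SE 0.20, adjusted p = 0.363), whereas H3K27ac fell, with a difference of -0.98 (SE 0.16, adjusted p = 0.00397) in limma's fit. Acss2, which activates acetate, had a gene mean of 0.63 ± 0.14 (SE) with all null livers above all intact livers, and Acsl5, a long-chain acyl-CoA synthetase, had -0.38 ± 0.13 (SE) with the order turned round.

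Acyl-CoA thioesterases, which free fatty acids from coenzyme A, had members at 7 of 10 genes; 6 gene means were below 0 and 0 passed by limma (2 at an unadjusted p under 0.05). Acot3 differed by -0.45 ± 0.14 (SE) and Acot4 by -0.31 ± 0.10 (SE); these genes are near-identical neighbours. Lipid droplet genes had members at 13 of 17, with a median of -0.06 and 0 past the limma test (5 at an unadjusted p under 0.05). Plin5 had a gene mean over 1 interval that differed by -0.81 (SE 0.20, adjusted p = 0.17) in limma's gene fit. Its folds were 11.8 and 16.9 in WT livers, 16.7 and 16.7 in the Cpt2 KO livers, 12.8 and 7.77 in the Ppara KO livers and 7.25 and 8.31 in the DKO livers. Its WT replicate 1 overlapped a Ppara KO liver. Plin3, another droplet coat protein, had 0.49 ± 0.12 (SE), and Mgll, which splits monoglycerides, had -0.40 ± 0.13 (SE).

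Fasting hormones and responders had members at 12 of 14 genes, with a median of -0.02 and 0 past the limma test (1 at an unadjusted p under 0.05). Fgf21 encodes a liver hormone of fasting. The interval chr7:45613816-45617793, which covers the printed promoter, had H3K4me1 folds of 10 and 8.5 in WT livers, 18.6 and 13.4 in the Cpt2 KO livers, 5.8 and 5.4 in the Ppara KO livers and 7.05 and 7.85 in the DKO livers. The groups did not overlap, and Cpt2 KO replicate 1 was the highest. The difference was -0.91 (SE 0.19, adjusted p = 0.0765) in limma and missed the threshold. H3K27ac was called there in the 4 intact livers, with folds of 15 and 18.4 (WT) and 22 and 21.6 (Cpt2 KO), and in 0 null livers. Over both of its intervals Fgf21 differed by -0.26 ± 0.14 (SE) in H3K4me1, and its H3K27ac gene mean, which rests on 1 other interval called in all 8 livers, had 0.48 (SE 0.15, adjusted p = 0.0899) in limma. Retsat, the retinol saturase of adipose tissue and liver, had an H3K4me1 gene mean over 1 interval that differed by -0.85 (SE 0.15, adjusted p = 0.124). Its H3K27ac gene mean differed by -1.12 (SE 0.15, adjusted p = 0.00339), both by limma. The interval over the Gdf15 promoter differed by -0.41 ± 0.19 (SE), and that over the Apoc2 promoter by 0.40 ± 0.18 (SE).

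Of the 23 genes followed whatever their values, among them Ppara, Cyp4a10, Cpt1a, Angptl4, Plin2, Fasn, Alb and Actb, 21 had members. Cyp4a14 and Vnn1 had none. Their gene means ran from -0.45 to 0.27 with a median of -0.16, 15 lay below 0, the groups failed to overlap at 2 in the lower direction (3.58% over all genes) and at 0 in the higher (2.87% over all genes), and 0 passed the limma test (3 at an unadjusted p under 0.05).

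Hepatocyte transcription factor genes had members at 16 of 18, and 14 gene means lay below 0, with a median of -0.13 and 0 past the limma test (4 at an unadjusted p under 0.05). Averaged over them, the centred log2 H3K4me1 of WT was 0.23 and 0.19, that of Cpt2 KO 0.15 and 0.10, that of Ppara KO 0.07 and 0.00 and that of DKO -0.03 and -0.06. The intact livers were all above the null livers, by small steps. Esrrg, an orphan receptor of oxidative metabolism, had -0.73 (SE 0.13, adjusted p = 0.124) in limma, Cebpb -0.43 ± 0.13 (SE) over 5 intervals and Cebpa, the main C/EBP of hepatocytes, -0.34 ± 0.11 (SE). Hnf4a, the master factor of hepatocyte identity, had 0.17 ± 0.10 (SE) over 13 intervals. H3K27ac gene means fell by limma at 3 of 18, beside 3.85% of all gene means. That of Esrrg differed by -0.82 ± 0.16 (SE) and that of Cebpa by -0.31 ± 0.11 (SE). Those of Cebpb and Hnf4a had 0.18 ± 0.13 (SE) and 0.28 ± 0.13 (SE).

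Ppara itself and its partners (14 of 18 with members) had a median of -0.06 and 0 past the limma test (2 at an unadjusted p under 0.05). Over 19 intervals Ppara differed by -0.26 ± 0.10 (SE), with groups apart. The sister receptor gene Ppard had -0.33 ± 0.15 (SE).

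Other programs leaned the other way or stayed near the median of all genes. Urea cycle and amino acid breakdown had members at 22 of 25 genes, of which 6 were below 0 and 0 passed by limma (3 at an unadjusted p under 0.05), with the highest median of the 26 programs, 0.13 (range over 19 other settings 0.03 to 0.22). Oat, which breaks down ornithine, had 0.61 ± 0.14 (SE) with groups apart, and Arg1, the last enzyme of the urea cycle, 0.50 ± 0.17 (SE). Tat, a tyrosine-degrading enzyme in the gluconeogenesis list, had 0.60 ± 0.14 (SE). Over the urea cycle list the averages of WT were -0.03 and -0.11, those of Cpt2 KO 0.04 and -0.15, those of Ppara KO -0.05 and 0.14 and those of DKO 0.07 and 0.14, so the groups overlapped. The hepatocyte markers had a median of 0.15 (7 of 8 above 0); their part in this lean was not tested. Cholesterol synthesis had a median of 0.07, xenobiotic metabolism 0.07, bile acids 0.09 and lipogenesis -0.02. In the bile acid list Hsd3b7, a steroid nucleus enzyme, had -0.55 ± 0.13 (SE). Mttp, which loads lipid on apolipoprotein B, had -0.71 ± 0.16 (SE), and Orm2, an acute phase protein, 0.90 ± 0.20 (SE). None of these genes passed.

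**Figure D3:**
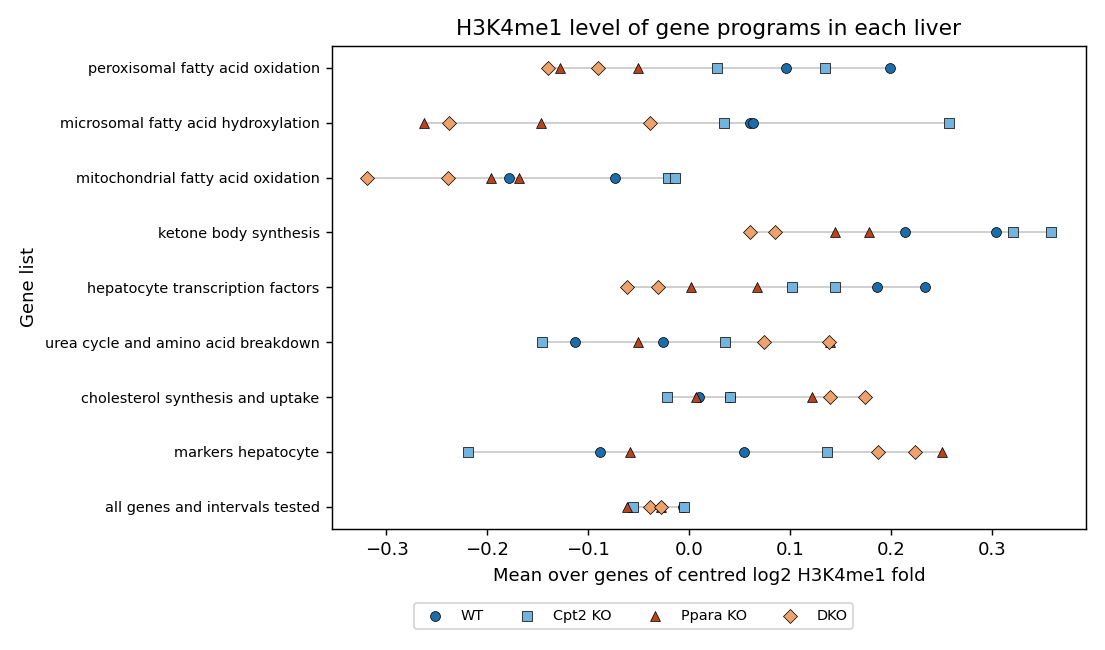
Mean over the genes of a list of centred log2 H3K4me1 fold (x axis), 1 point per liver, for 8 lists and for all genes. In the peroxisomal, microsomal, ketone body and hepatocyte transcription factor lists the Ppara-null livers lie below all Ppara-intact livers; in the other 4 lists the groups overlap.

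The members, called in all 8 livers, leave out regions that lost or gained the peak altogether. Of 95313 consensus intervals within 50000 bases of a gene, 2737 (2.87%) were called in at least 3 intact and 0 null livers, and 1749 (1.84%) the other way round. For the peroxisomal genes the counts were 25 (10.1%) and 1 (0.405%) of 247 intervals. For fatty acid uptake they were 21 (11.5%) and 2 (1.10%) of 182, and for mitochondrial oxidation 13 (11.3%) and 0 of 115. For the urea cycle list they were 2 and 4 of 284. These counts are descriptions, chosen after earlier results were known, and long-width libraries, mostly Ppara-null, covered less of the genome.

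H3K27ac gave more calls than H3K4me1. By limma it fell at 758 of 18281 intervals (4.15%) and rose at 584 (3.19%). Where H3K27ac fell, 625 members overlapped, and their H3K4me1 had a median change of -0.21, with 74.1% below 0. Where H3K27ac rose, 514 members had a median of 0.36, with 12.1% below 0. At the 10351 members over H3K27ac intervals that did not pass, the median was 0.01. The groups of livers failed to overlap in H3K4me1, in the lower direction, at 78 of the 625 (12.5%), and in the higher direction at 66 of the 514 (12.8%). Over all members these shares were 3.2% and 2.71%, and over the 10351 they were 2.13% and 2.15%. The test of H3K4me1 itself called 5 of the 625 and 1 of the 514. The H3K27ac calls numbered 194 with the smallest width as a covariate and 469 to 886 when any library but WT replicate 1 was left out, the fewest without the second Cpt2 KO library.

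**Figure D4:**
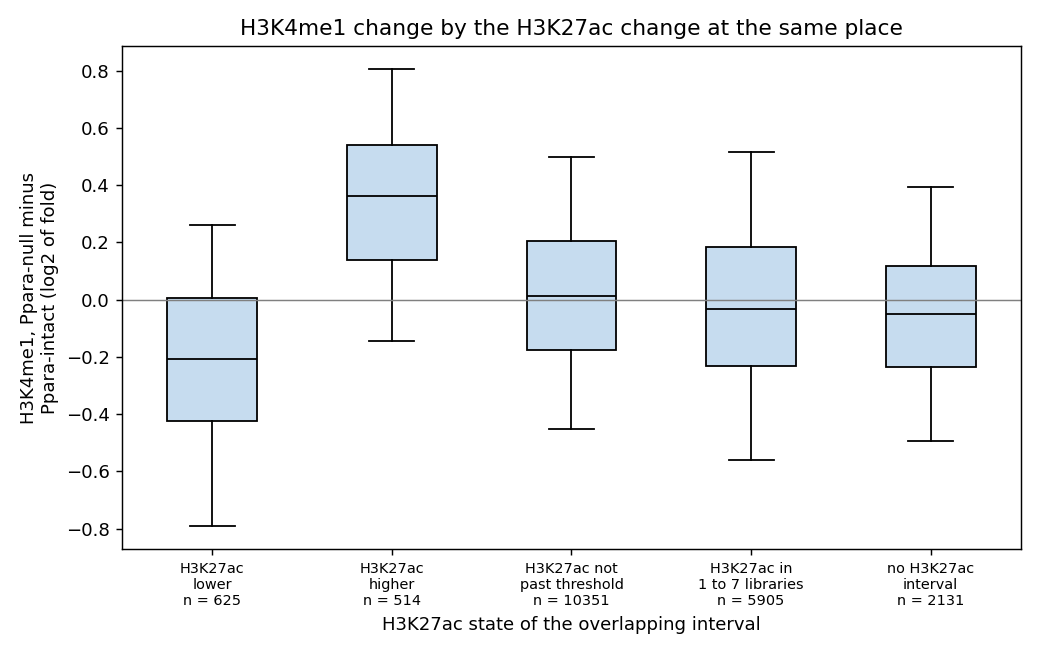
Change of H3K4me1 between Ppara-null and Ppara-intact livers (log2 of fold) in member intervals grouped by the H3K27ac interval they overlap. Boxes show the quartiles and median, whiskers the 5th to 95th percentile of intervals; the medians are -0.21 where H3K27ac fell, 0.36 where it rose and between -0.05 and 0.01 in the other 3 groups.

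Most called H3K4me1 intervals (16 of 25) lay where H3K27ac was called in some livers and not in others, as did 30.2% of all members. Of the 16 that fell, 8 overlapped such an H3K27ac interval, and at 8 of 8 it was called in more intact than null livers. Of the 9 that rose, 8 did so, and at 8 of 8 it was called in more null than intact livers. Over all 5905 members on such intervals, 2912 (49.3%) had more intact calls, with a median H3K4me1 change of -0.14, and 2200 (37.3%) had more null calls, with a median of 0.14. The 142 members where H3K27ac was called in all 4 intact and 0 null livers had a median of -0.41, and the 72 of the reverse kind had 0.37. Of the 16 that fell, 7 overlapped an H3K27ac interval called in all 8 livers and 1, at Lrrn4, overlapped none. By limma 5 of those 7 were lower in H3K27ac, beside 4.15% of all H3K27ac intervals. At Zcchc24, the largest fall, the H3K27ac difference was -0.52 (SE 0.20, adjusted p = 0.131) in limma. Of the 9 that rose, 1 overlapped an H3K27ac interval called in all 8 livers, which was higher by limma, beside 3.19% of all. Both marks came from the same livers and 1 pooled input, so these values are not independent.

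At other places the marks parted. The change of H3K4me1 minus the change of H3K27ac was tested by limma over the 16 libraries at the 11490 members that overlap an H3K27ac interval called in all 8 livers. It was above 0 at 35 (0.305%) and below 0 at 5 (0.0435%). All 35 lay where H3K27ac fell, with differences of -2.10 to -0.64, while H3K4me1 there differed by -0.51 to 0.63. H3K4me1 was called at 0 of the 35 by limma, where over all members 0.0819% were called lower and 0.0461% higher. Picking pairs by the difference between the marks selects places where the 2 changes lie far apart, so these ranges are a description. Over all 11490 pairs the 2 changes had a Pearson correlation of 0.42. Their standard deviations were 0.30 for H3K4me1 and 0.39 for H3K27ac. The scales of the 2 marks were not matched, and the part of this in the differences was not tested. The 35 pairs rest on 32 H3K27ac intervals. The highest fold of an H3K27ac interval need not lie over the H3K4me1 interval paired with it. Genes of fatty acid handling among the 35 pairs were Acaa1b, Slc27a2, Hsd17b4, Cyp4a10, Aldh3a2, Pex14, Gpam and Mfsd2a, singled out after their values were seen.

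Acaa1b is given with the folds of its pair inside the gene. In its body, at chr9:119151787-119156397, H3K4me1 folds were 5.09 and 10.6 in WT livers, 7.14 and 5.89 in the Cpt2 KO livers, 7.39 and 8.04 in the Ppara KO livers and 6.72 and 6.12 in the DKO livers. H3K27ac folds at the overlapping interval were 22 and 33.8 in WT livers, 37.4 and 32 in the Cpt2 KO livers, 7.54 and 8.32 in the Ppara KO livers and 9.18 and 6.17 in the DKO livers. The groups did not overlap in H3K27ac and overlapped in H3K4me1. The H3K4me1 change exceeded the H3K27ac change by 2.05 (SE 0.31, adjusted p = 0.00967) in limma. The other Acaa1b pair, at chr9:119157345-119160644 outside the gene, overlapped the same H3K27ac interval. H3K4me1 there differed by -0.44 ± 0.21 (SE), and the difference between the marks was 1.58 (SE 0.29, adjusted p = 0.0162) in limma. At Mfsd2a, a fasting-induced transporter of lysophospholipids, H3K4me1 folds at chr4:122956781-122959671 were 6.46 and 6.04 in WT livers, 5.08 and 4.59 in the Cpt2 KO livers, 7 and 5.5 in the Ppara KO livers and 4.36 and 4.83 in the DKO livers. H3K27ac folds there were 24.4 and 26.4 in WT livers, 30.3 and 35.9 in the Cpt2 KO livers, 8.42 and 3.52 in the Ppara KO livers and 15.4 and 4.89 in the DKO livers. Here too only H3K27ac kept the groups apart. The difference between the marks was 2.06 (SE 0.43, adjusted p = 0.0338) in limma.

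Slc27a2, an importer and activator of fatty acids, had a difference between the marks of 1.66 (SE 0.35, adjusted p = 0.0343) at 8055 bases from the gene, and Hsd17b4, the multifunctional enzyme of peroxisomal oxidation, 1.49 (SE 0.24, adjusted p = 0.00967) at the larger of its 2 pairs. At Cyp4a10 a second interval, chr4:115518842-115520736, inside the gene, showed 1.58 (SE 0.33, adjusted p = 0.0343). H3K4me1 there differed by -0.09 ± 0.25 (SE), while at the neighbouring interval outside the gene, given above, it differed by -0.82. Both H3K4me1 intervals overlap the same H3K27ac interval, chr4:115513203-115522449, and are set beside its 1 value. The highest H3K27ac fold need not lie over either of them.

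The 5 pairs below 0 lay at or near Cdh1, Spon1, Aldh8a1, Gatd1 and Srrm4. At Cdh1, which encodes E-cadherin, H3K4me1 folds at chr8:106602935-106607875 were 5.83 and 7.72 in WT livers, 6.04 and 6.35 in the Cpt2 KO livers, 6.35 and 7.16 in the Ppara KO livers and 7.46 and 7.5 in the DKO livers. H3K27ac folds were 4.32 and 6.93 in WT livers, 4.61 and 3.94 in the Cpt2 KO livers, 13.8 and 16 in the Ppara KO livers and 20.8 and 16.8 in the DKO livers. In H3K27ac every null liver was above every intact liver, and in H3K4me1 the groups overlapped. The difference was -1.62 (SE 0.27, adjusted p = 0.00967). H3K27ac was called higher at 4 of the 5, the exception being Srrm4. Over all 11490 pairs, where 40 passed with every library, 0 passed by limma when the liver set lacked the second Cpt2 KO, the first Ppara KO or the second DKO replicate (947 to 1323 at an unadjusted p under 0.05). The count was 1 or 5 when the second or first WT replicate was left out, 2 for the first DKO, 7 for the second Ppara KO and 69 for the first Cpt2 KO replicate. Taken within each liver, an alternative chosen after seeing the data, the difference passed at 78 pairs, among them 34 of the 35.

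**Figure D5:**
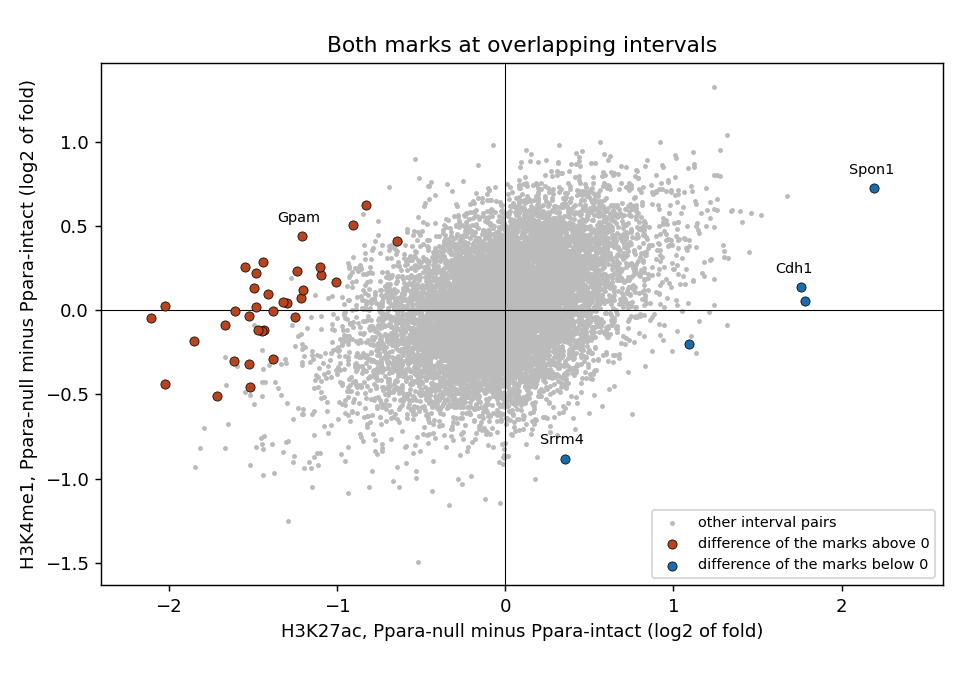
Change between Ppara-null and Ppara-intact livers in H3K27ac (x axis) and H3K4me1 (y axis), both as log2 of fold, at 11490 overlapping interval pairs. Red points are the 35 pairs where the H3K4me1 change lay above the H3K27ac change, blue points the 5 where it lay below; the red points spread from -0.51 to 0.63 in H3K4me1 and all lie at or below -0.64 in H3K27ac.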

How the data were processed

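H3K4me1 and H3K27ac ChIP-seq peak lists of 8 livers each were used, with groups taken from the sample titles. The deposited lists give for each peak a fold over input (a ratio made by the authors) and a −log10 q; per the submitters' processing notes, BWA, MACS2 2.1.0 and mm10 were used. Each deposited list's peak names carry 1 animal number, so peaks were called per library, and the labels name 1 pooled input for both marks. Other settings are not given in the sources used here. The peak names of 1 H3K27ac Ppara KO library carry another build word; its coordinates were used as mm10. Consensus intervals are the deposited first block of each mark's table.

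An interval took the highest fold among peaks overlapping it by at least 1 base, as log2, centred on the library's median. Its gene was the nearest of 21900 protein-coding bodies (RefSeq, GRCm38.p6) to its middle; 208 intervals had ties, settled by nearest start. limma 3.58.1 (R 4.3.3; lmFit, eBayes with trend) fitted 4 genotype means over the 8 libraries of a mark, with Benjamini-Hochberg adjustment over all features. The script was tested on simulated data. The 2 livers of a genotype carry separate animal numbers. Folds are the authors' values for single lists, and their comparison assumes like depth. Alternatives were other centring, fold choice, peak minimum (−log10 q of at least 10), overlap, presence in at least 6 libraries, width covariate, additive model, replicate block and each library left out.

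Named genes were all intervals and gene means past the threshold, the 3 smallest p-values per program and a list followed whatever its values; the interval given for a gene is its called one or else that of highest mean fold, unless a promoter or pair is named. A few named items are not reported here. Members and lists were chosen with earlier results of these data known.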

Additional observations from a re-analysis of the deposited data

Results flagged for a closer look

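In the 4 Ppara-intact or the 4 Ppara-null livers of each of the 25 called intervals, 1 of 50 groups held a liver far from the other 3. Near Cebpb, at chr2:167719253-167724534, Cpt2 KO replicate 1 had an H3K4me1 fold of 16, where the other Ppara-intact livers had 21.2 to 22.1. Its gap to the nearest liver was 0.886 of the group's range on the log2 scale and exceeded Dixon's critical value for 4 samples. Chance gives about 1 such group in 20. This library also had the largest smallest peak width among the Ppara-intact libraries, 211 bases, and its part in the value was not tested.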

How the results depend on the processing

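Over 17 other settings the 25 called intervals kept their direction wherever they had a value (8 had none with the peak minimum), which the lack of overlap at 23 of them fixes when a library is left out. Counts of called intervals (25) became 7 with quantile normalization, 3 with mean folds, 6 with presence in at least 6 libraries, 0 with the width covariate, 71 in the additive model and 0 with the replicate block, and 0 to 1015 with a library left out. Called gene means (1) became 2 without centring, 2 with mean folds, 3 with the peak minimum, 0 with presence in 6 libraries, 0 with the width covariate, 2 in the additive model, 0 with the replicate block, 13 with the interval of highest mean fold alone, and 0 to 19 with a library left out. The interaction gave 0 in all settings run (351 to 1289 at an unadjusted p under 0.05, limma). H3K27ac calls (1342) became 194 with the width covariate and 735 in the additive model, and 469 to 1528 with a library left out; with the replicate block they were 1490. Mark differences (40) became 24 without centring, 63 with the width covariate and 78 within livers (chosen after seeing the data), 35 with the replicate block and 0 to 69 with a library left out. The gene mean of Cpt1a, near 0, changed sign: it went to -0.0257 with mean folds, -0.0246 with the width covariate, -0.5285 with the interval of highest mean fold, and -0.0302 to 0.0404 with a library left out. The causes were not tested. The labels do not say what livers of one replicate number share. Correlations between the deviations of same-numbered livers ran from -0.49 to 0.10 for H3K4me1, where 1 of 6 exceeded 0.1. For H3K27ac they ran from -0.06 to 0.17, and 2 of 6 exceeded 0.1.

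With 2 livers per genotype and folds from peak lists of unknown read depth, regions called in fewer than 6 libraries entered no fit, and a weak peak is only listed once it passes the caller. Animal numbers separate the Ppara groups fully, and peak widths do so in part. Fold levels are compared within a mark only, while changes of the 2 marks were subtracted without matching their scales.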
